A study of Homo sapiens with 24 samples.

Results

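The integrated stress response and the unfolded protein response were followed through 40 genes, found by gene name among the 57820 genes of each count table. Of these, 25 were ATF4 and 24 of its known targets, and 15 belonged to the unfolded protein response, 9 of them chaperones or folding factors of the endoplasmic reticulum (ER). Total RNA was sequenced from Cal33 and SAS, established human head and neck squamous cell carcinoma lines from the tongue and wild type by their labels. Each line was given GSK-J1 at 4.5 µM together with one x-ray dose of 4 Gy (GSK-J1 plus 4 Gy), 4 Gy without the compound, GSK-J1 without x-rays, or sham treatment, with 3 replicates of each and RNA isolated 24 h later. GSK-J1 inhibits UTX (KDM6A) and JMJD3 (KDM6B), which remove methyl groups from lysine 27 of histone H3. Nothing in the sources says whether replicates came from separate cultures, so p-values measure the spread between these libraries, which may be technical. As bulk RNA was measured, more stressed cells and more RNA per cell cannot be told apart.

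When cells are starved of amino acids, exposed to viral RNA or burdened with unfolded protein, kinases phosphorylate the translation factor eIF2. Most translation then slows while translation of ATF4 mRNA rises, and ATF4 protein switches on genes for amino acid synthesis and uptake, for the CHOP (DDIT3) and TRIB3 regulators, and for a feedback phosphatase subunit, PPP1R15A. Unfolded protein in the ER also activates IRE1 (ERN1), which splices XBP1 mRNA, and ATF6, which is cut to release a transcription factor. XBP1 and ATF6 raise the chaperones and the machinery for ER-associated degradation. The amount of ATF4 mRNA thus does not report ATF4 translation, and gene counts do not report XBP1 splicing.

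Sequences that factors of these pathways are known to bind are shown for members whose values are compared later. The 250 bases before the start in RefSeq (GRCh38.p14) were found for 35 of 40 members. A C/EBP-ATF response element, TGATGNAA on either strand, was present in 4 of the 35 and in 3.19% of all 27305 promoters. Of the 4, these 3 belong to the ATF4 arm. Capitals mark the element, and where it lies on the other strand, as in CHAC1, its reverse complement is in capitals.
ATF3, chr1:212565186-212565253, plus strand: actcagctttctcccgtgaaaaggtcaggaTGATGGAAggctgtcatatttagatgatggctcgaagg
CHAC1, chr15:40953232-40953299, plus strand: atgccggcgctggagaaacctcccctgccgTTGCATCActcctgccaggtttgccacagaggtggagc
ASNS, chr7:97872439-97872506, minus strand: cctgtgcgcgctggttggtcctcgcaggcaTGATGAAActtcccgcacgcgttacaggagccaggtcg

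An ER stress response element, here CCAAT, then 9 bases, then CCACG on either strand, was present in XBP1, HSPA5, HSP90B1, CALR and CRELD2, 5 of the 35, against 0.0806% of all promoters. ERSE-II, ATTGG, then 1 base, then CCACG on either strand, was present in SDF2L1, HYOU1 and HERPUD1, 3 of the 35, against 0.0513% of all promoters. Capitals again mark the element on either strand, and HYOU1 holds it at 2 places.
XBP1, chr22:28800573-28800651, minus strand: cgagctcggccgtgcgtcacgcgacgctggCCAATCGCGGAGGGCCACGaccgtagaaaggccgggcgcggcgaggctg
HSPA5, chr9:125241361-125241439, minus strand: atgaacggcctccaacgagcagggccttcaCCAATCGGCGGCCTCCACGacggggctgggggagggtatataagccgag
CRELD2, chr22:49918524-49918602, plus strand: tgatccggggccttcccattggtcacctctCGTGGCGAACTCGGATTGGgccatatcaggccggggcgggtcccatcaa
SDF2L1, chr22:21642084-21642154, plus strand: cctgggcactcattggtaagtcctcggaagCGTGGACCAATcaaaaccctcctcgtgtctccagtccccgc
HYOU1, chr11:119057244-119057420, minus strand: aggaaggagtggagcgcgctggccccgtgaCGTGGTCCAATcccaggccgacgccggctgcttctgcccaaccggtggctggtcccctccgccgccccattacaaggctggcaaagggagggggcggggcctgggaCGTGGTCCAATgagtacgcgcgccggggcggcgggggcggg

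HERPUD1, which links ubiquitin ligases to the ER membrane, was the only member of the 35 with both the C/EBP-ATF element, first in capitals, and ERSE-II, second in capitals. A match of letters is not evidence of binding in these cells.
HERPUD1, chr16:56931936-56932065, plus strand: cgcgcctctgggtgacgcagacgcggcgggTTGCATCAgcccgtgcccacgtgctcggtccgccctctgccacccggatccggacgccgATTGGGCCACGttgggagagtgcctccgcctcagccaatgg

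Libraries held 54200036 to 96848227 counts on the gene strand, and none of the 40 members was removed by the filter on low counts, which asked for 1 count per library on average. All 13 squamous epithelial markers were at or above 1 CPM (counts relative to the library total, scaled for composition) in every library, and summed to 8210 to 12100 CPM in Cal33 and 6240 to 7950 CPM in SAS. Of 16 markers of blood, endothelial, fibroblast and muscle cells found in the tables, 4 or 5 reached 1 CPM in every library of a group and they summed to 34.8 to 139 CPM. In SAS, replicate 1 of the GSK-J1 group and replicate 1 of the GSK-J1 plus 4 Gy group stood apart. Over 25 genes expressed in Cal33 and near 0 in SAS, they held 2.07% and 0.623% of the Cal33 level, while no other SAS library was above 0.113%. Counts of members called in SAS after irradiation, and in the difference between the lines, are therefore also given without them. KDM6A had 34.2 to 37.7 CPM in Cal33 given GSK-J1 and 30.5 to 44.8 CPM in Cal33 sham, and 78.7 to 89.5 CPM in SAS given GSK-J1 and 76.4 to 94.2 CPM in SAS sham. KDM6B had 58.9 to 92.0 CPM in Cal33 given GSK-J1 and 50.5 to 106 CPM in Cal33 sham. In SAS it had 49.2 to 62.6 CPM with GSK-J1 and 56.0 to 61.4 CPM in sham. An inhibitor of these enzymes need not change their mRNA. In irradiated Cal33, KDM6A was higher, with 51.2 to 70.2 CPM with GSK-J1 plus 4 Gy and 51.1 to 71.1 CPM after 4 Gy.

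Irradiation was first examined in Cal33, by setting the 6 libraries given 4 Gy, with or without GSK-J1, against the 6 that were not, in a fit with a mean for each treatment. The stress regulators DDIT3, ATF3 and PPP1R15A and the secreted proteins GDF15 and STC2 were among those that rose, and 5 of 9 chaperones rose by smaller amounts, 0.30 to 0.63 on the log2 scale. By edgeR's quasi-likelihood test with Benjamini-Hochberg adjustment over 24351 genes, 20 of 40 members rose and 1, PHGDH, fell at an adjusted p under 0.05. Over all genes tested, 11.3% were called higher and 10.2% lower. The median log2 fold change was 0.50 over the 24 ATF4 targets (12 higher, 1 lower) and 0.30 over the 9 chaperones (5 higher, none lower), against 0.02 over all genes. Markers of other cells summed to 60.8 to 75.6 CPM in irradiated Cal33 libraries, against 65.1 to 93.9 CPM in the others, and 5 of 13 squamous markers rose; their part in the result was not tested. Changes are given on the log2 scale with their standard error (SE).

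**Figure D1:**
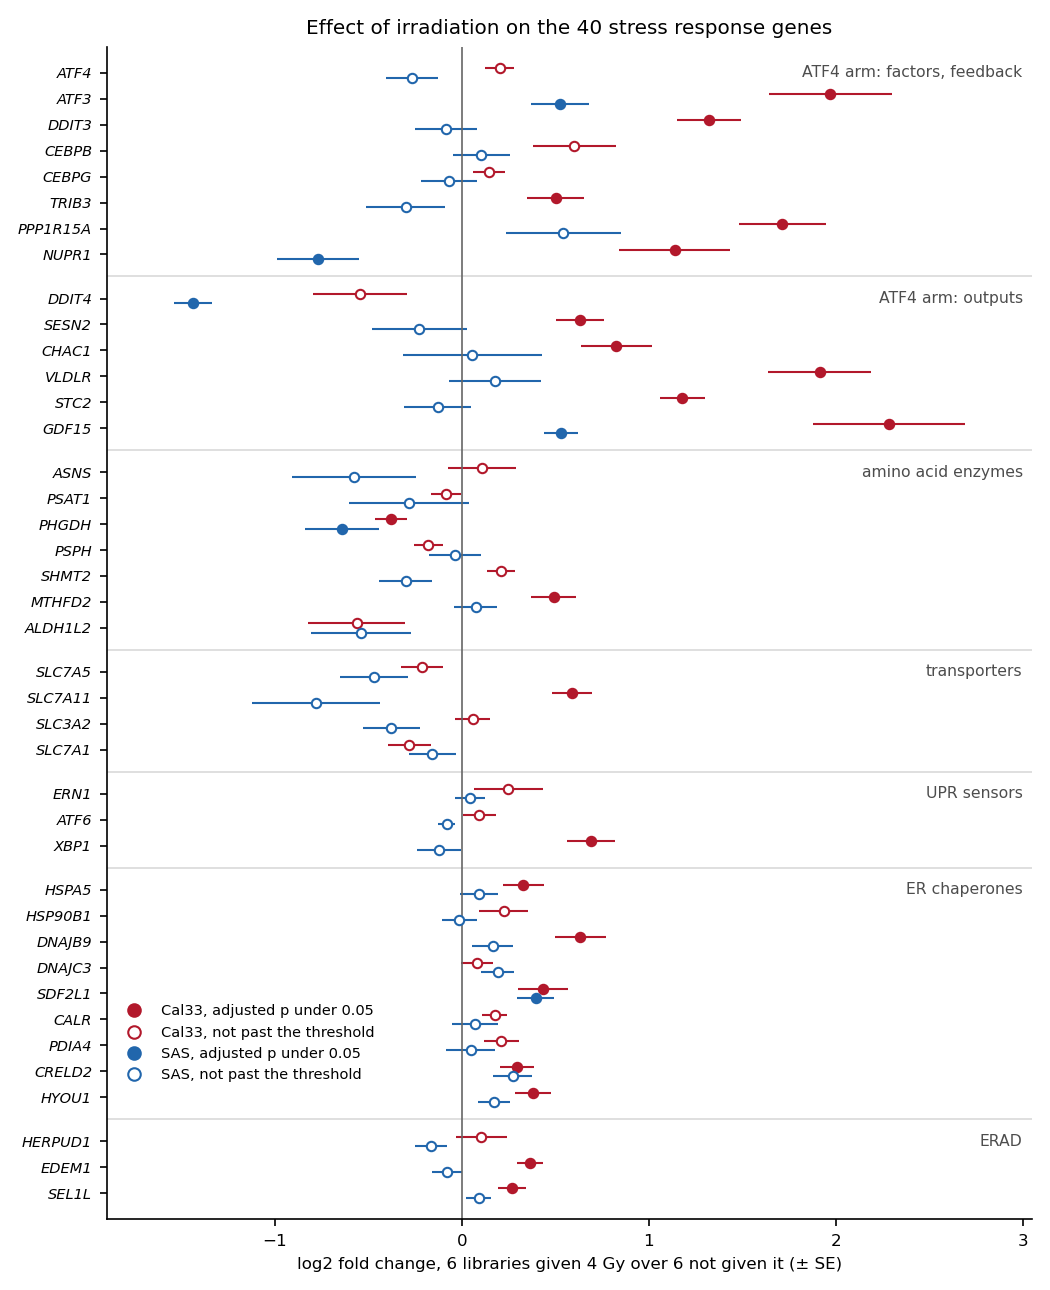
Log2 fold change after 4 Gy for the 40 members, averaged over the arms with and without GSK-J1. Rows are genes grouped by role, points are the estimates for Cal33 (red) and SAS (blue), bars are ± SE, and filled points had an adjusted p under 0.05 (edgeR, no replicate term). Cal33 points run from -0.56 (ALDH1L2) to 2.29 (GDF15) and SAS points from -1.44 (DDIT4) to 0.54 (PPP1R15A).

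Among the factors of the ATF4 arm, ATF4 mRNA itself moved little. It ranged from 391 to 464 CPM (median 432) in irradiated Cal33 libraries, against 346 to 431 CPM (median 365) in those without irradiation. Both sets overlapped, and its log2 fold change of 0.20 ± 0.08 did not pass the test (adjusted p = 0.0831). DDIT3 encodes CHOP, a factor linked to cell death under lasting ER stress. It had 68.0, 42.5 and 49.4 CPM in GSK-J1 plus 4 Gy replicates 1 to 3 and 67.7, 44.4 and 51.4 CPM after 4 Gy, against 29.3, 21.2 and 16.6 CPM with GSK-J1 and 22.3, 16.1 and 24.4 CPM in sham. No irradiated library was as low as any library without irradiation, and the rise was 1.32 ± 0.17 (adjusted p = 0.000337). ATF3, a stress-induced repressor that ionizing radiation is also known to induce, had 144, 41.7 and 85.6 CPM with GSK-J1 plus 4 Gy and 158, 44.9 and 90.8 CPM after 4 Gy, against 31.5, 21.8 and 19.3 CPM with GSK-J1 and 22.3, 17.9 and 32.2 CPM in sham. Its groups did not overlap either, and replicate 2 was lowest and replicate 1 highest in both irradiated groups (1.97 ± 0.33, adjusted p = 0.00152). PPP1R15A (GADD34), which guides the phosphatase that reverses eIF2 phosphorylation, had 217, 87.7 and 150 CPM with GSK-J1 plus 4 Gy and 228, 106 and 151 CPM after 4 Gy. With GSK-J1 it had 62.6, 44.7 and 37.8 CPM and in sham 49.8, 39.0 and 54.2 CPM. Its rise of 1.71 ± 0.23 (adjusted p = 0.000425) again left irradiated and other libraries apart.

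TRIB3, a pseudokinase that restrains ATF4, had a median of 167 CPM (132 to 180) in irradiated Cal33 libraries, against 115 CPM (72.1 to 152) in the others. The ranges overlapped, and the rise was 0.50 ± 0.15 (adjusted p = 0.033). NUPR1, a small stress-induced chromatin protein, had 327, 122 and 269 CPM with GSK-J1 plus 4 Gy and 336, 121 and 251 CPM after 4 Gy, against 102, 136 and 84.9 CPM with GSK-J1 and 171, 72.8 and 85.5 CPM in sham. It rose by 1.14 ± 0.30 (adjusted p = 0.0167), with replicate 2 of both irradiated groups inside the range of the others. CEBPB and CEBPG, leucine zipper partners of ATF4, did not pass the test (adjusted p = 0.0706 and 0.245).

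Outputs of the arm gave the highest role median, 1.00, with 5 of 6 called higher. GDF15, a secreted stress cytokine and also a known p53 target, had 315, 104 and 164 CPM with GSK-J1 plus 4 Gy and 275, 97.8 and 98.9 CPM after 4 Gy, against 56.6, 29.5 and 19.2 CPM with GSK-J1 and 34.5, 17.2 and 59.5 CPM in sham. The lowest irradiated library was above the highest other one, and the rise of 2.29 ± 0.41 (adjusted p = 0.00206) was the largest of the 40. STC2, a secreted glycoprotein, had the smallest adjusted p of the 40. It had 90.3, 94.6 and 109 CPM with GSK-J1 plus 4 Gy and 94.0, 84.3 and 96.3 CPM after 4 Gy, against 51.2, 39.9 and 36.1 CPM with GSK-J1 and 43.6, 30.9 and 50.2 CPM in sham, a rise of 1.18 ± 0.12 (adjusted p = 9e-05). VLDLR, a lipoprotein receptor, rose by 1.91 ± 0.27 (adjusted p = 0.000583) at a very low level. It had 2.59, 1.78 and 1.94 CPM with GSK-J1 plus 4 Gy and 2.66, 2.03 and 1.91 CPM after 4 Gy, against 0.28, 0.931 and 0.544 CPM with GSK-J1 and 0.763, 0.57 and 0.373 CPM in sham. CHAC1, which degrades glutathione, had 18.9 to 27.8 CPM (median 21.5) in irradiated libraries and 6.93 to 16.4 CPM (median 14.1) in the others, a rise of 0.83 ± 0.19 with no overlap. SESN2, an inhibitor of mTORC1, rose by 0.63 ± 0.13. DDIT4 (REDD1), another mTORC1 inhibitor, was the exception. It had 1079, 772 and 592 CPM with GSK-J1 plus 4 Gy and 1024, 656 and 482 CPM after 4 Gy, against 1426, 1126 and 772 CPM with GSK-J1 and 1320, 580 and 1514 CPM in sham, and its log2 fold change of -0.54 ± 0.25 did not pass (adjusted p = 0.144).

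**Figure D2:**
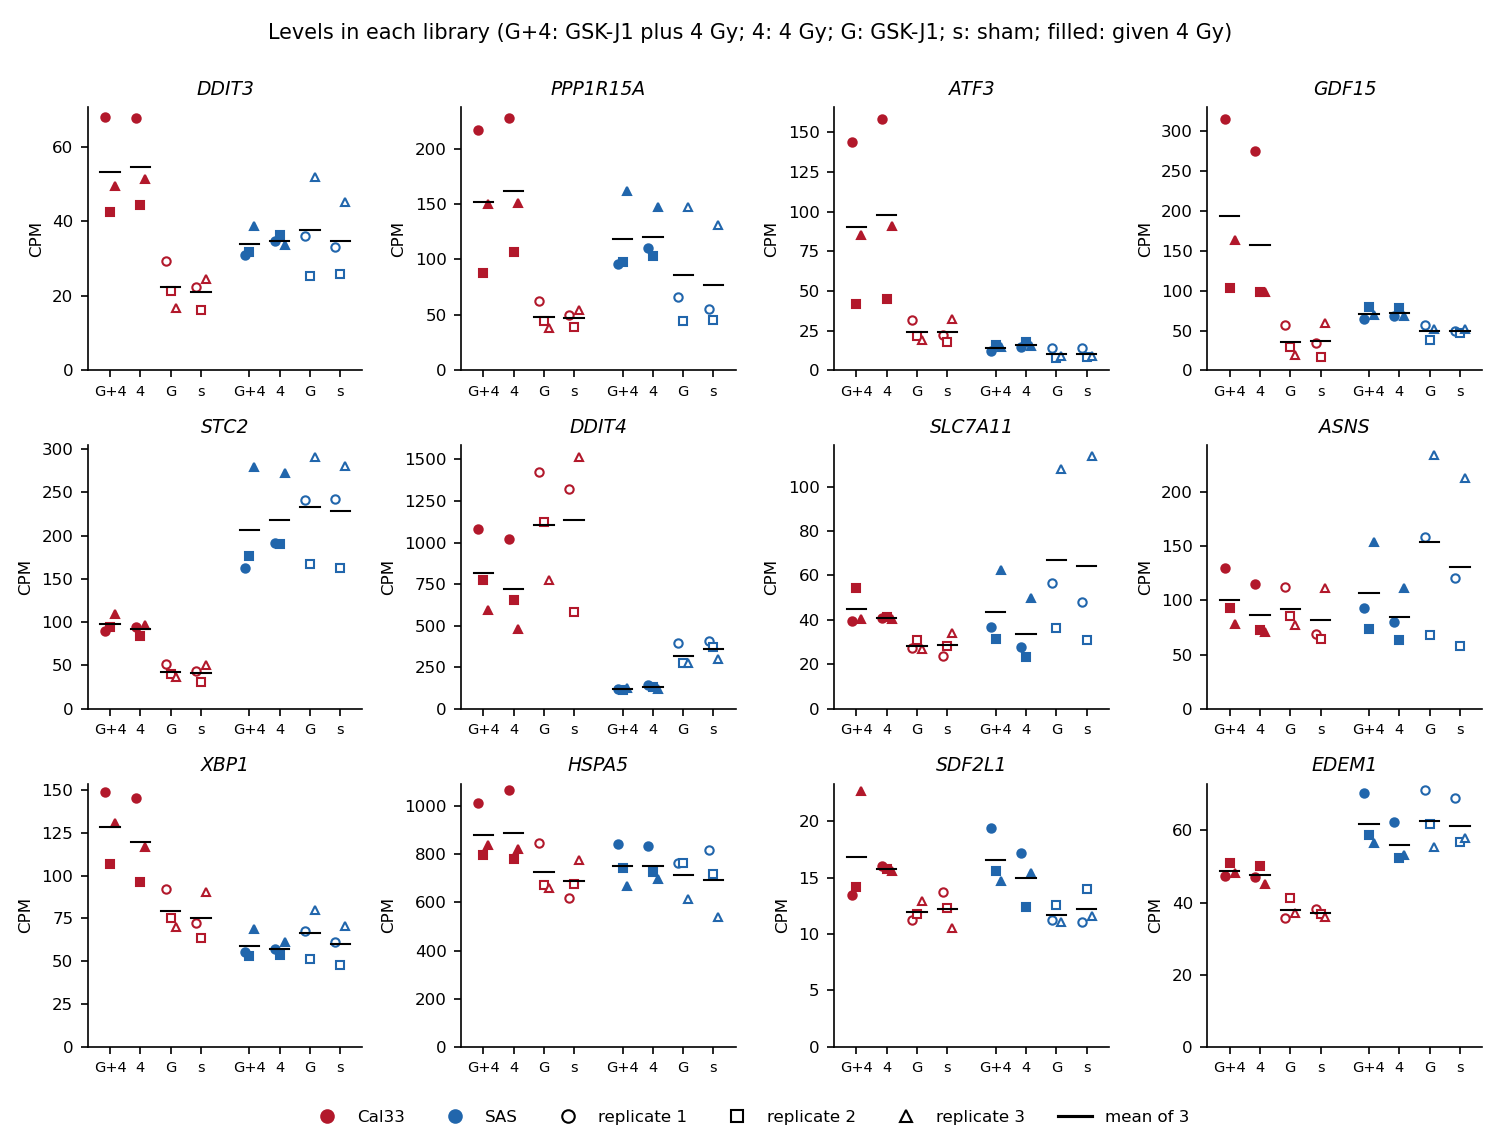
CPM of 12 members in each of the 24 libraries, with Cal33 left and SAS right in each panel. On the horizontal axis G+4 is GSK-J1 plus 4 Gy, 4 is 4 Gy, G is GSK-J1 and s is sham; marker shapes give the replicate number, filled markers are irradiated libraries and short lines are means of 3. In Cal33 the irradiated STC2 values lie at 84.3 to 109 CPM, above 30.9 to 51.2 CPM without irradiation, while in SAS the 2 sets overlap.

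Among the genes of amino acid supply, MTHFD2 and SLC7A11 rose and PHGDH fell. Of 7 enzymes of serine, glycine, folate and asparagine synthesis, only MTHFD2, the mitochondrial folate enzyme, rose (0.49 ± 0.12, adjusted p = 0.012), and the role median was -0.09. PHGDH, the first enzyme of serine synthesis, had 116, 128 and 131 CPM with GSK-J1 plus 4 Gy and 106, 111 and 96.3 CPM after 4 Gy, against 144, 157 and 166 CPM with GSK-J1 and 168, 138 and 120 CPM in sham. It fell by 0.38 ± 0.09 on the log2 scale (adjusted p = 0.00845), with sham replicate 3 inside the irradiated range. ASNS, asparagine synthetase and a textbook ATF4 target, had 71.1 to 130 CPM (median 85.7) in irradiated libraries and 64.0 to 112 CPM (median 81.6) in the others (0.11 ± 0.18, adjusted p = 0.706). Of 4 amino acid transporters, SLC7A11, the cystine importer, rose by 0.59 ± 0.11 (adjusted p = 0.00231). It had 39.5, 54.5 and 40.6 CPM with GSK-J1 plus 4 Gy and 41.0, 41.3 and 40.3 CPM after 4 Gy, against 27.5, 30.8 and 26.8 CPM with GSK-J1 and 23.7, 28.1 and 33.9 CPM in sham, without overlap. The large neutral amino acid importer SLC7A5, its partner SLC3A2 and the arginine importer SLC7A1 lay between -0.28 and 0.06 and did not pass.

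In the unfolded protein response, all 15 members had a positive log2 fold change in Cal33, from 0.08 to 0.69, and 8 passed the test. XBP1 rose by 0.69 ± 0.13 (adjusted p = 0.00297), with 149, 107 and 130 CPM with GSK-J1 plus 4 Gy and 145, 96.1 and 117 CPM after 4 Gy, against 91.9, 75.4 and 70.1 CPM with GSK-J1 and 72.2, 63.4 and 90.2 CPM in sham. The irradiated libraries were all above the others. The stress sensors ERN1 and ATF6 did not pass (0.25 ± 0.18 and 0.09 ± 0.09). HSPA5 (BiP), the main ER chaperone, which carries the ER stress response element shown above, had 1013, 796 and 837 CPM with GSK-J1 plus 4 Gy and 1067, 780 and 822 CPM after 4 Gy. It had 846, 671 and 662 CPM with GSK-J1 and 620, 675 and 776 CPM in sham. The sets overlapped, and its rise of 0.33 ± 0.11 was at the threshold (adjusted p = 0.049) and was called in 4 of the 12 fits that left out a library. The HSP70 partner DNAJB9, an inhibitor of IRE1, rose by 0.63 ± 0.14, to 8.52 to 12.1 CPM in irradiated libraries against 5.68 to 7.57 CPM in the others. SDF2L1, a helper of DNAJ proteins, rose by 0.43 ± 0.13, the BiP exchange factor HYOU1 by 0.38 ± 0.10 and CRELD2 by 0.30 ± 0.09. Of the 12 fits that left out a library, DNAJB9 and HYOU1 were called in all 12, CRELD2 in 7 and SDF2L1 in 5. HSP90B1 (GRP94), DNAJC3, the lectin chaperone CALR and the disulfide isomerase PDIA4 had values of 0.08 to 0.22 and did not pass. In ER-associated degradation EDEM1 rose by 0.36 ± 0.07, to 45.3 to 50.9 CPM in irradiated libraries against 35.6 to 41.3 CPM in the others. SEL1L rose by 0.27 ± 0.08, and HERPUD1 had 39.5 to 61.5 CPM (median 44.0) in irradiated libraries and 36.8 to 49.7 CPM (median 48.8) in the others (0.10 ± 0.14, adjusted p = 0.632).

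With 3 libraries a side and no replicate term, fewer Cal33 members passed. Cal33 4 Gy against sham called 8 higher (STC2, DDIT3, PPP1R15A, VLDLR, ATF3, EDEM1, GDF15 and XBP1) and 1 lower (PHGDH), beside 3.47% of all genes higher and 2.81% lower. GSK-J1 plus 4 Gy against GSK-J1 called 9 higher, with SLC7A11 in addition to those 8, and none lower, beside 3.04% and 2.07% of all genes. Same-numbered Cal33 libraries of these 2 groups deviated together from their group means, but barely so in replicate 2. The correlations were 0.428, 0.106 and 0.301 in replicates 1 to 3, against a minimum of 0.1 set for pairing. A fit of their 6 libraries with the replicate number as a term called 18 members higher and 1 lower. In that fit 10% of all genes were called higher and 8.37% lower. Leaving out a library changed the counts of the fits without a replicate term. Shares of all genes are not given for these leave-out fits, so the changes may not be particular to the members. The 9 members of 4 Gy against sham became 4 without 4 Gy replicate 1, 4 without 4 Gy replicate 3, 3 without sham replicate 1 and 4 without sham replicate 2. The 9 of GSK-J1 plus 4 Gy against GSK-J1 became 4 without GSK-J1 plus 4 Gy replicate 1, 2 without its replicate 3, and 5, 2 and 1 without GSK-J1 replicates 1, 2 and 3. In the 6 leave-out fits of 4 Gy against sham, DDIT3, VLDLR and STC2 were called in all 6 and PPP1R15A in 5. ATF3 and XBP1 were called in 2, GDF15 and PHGDH in 1 and EDEM1 in 0. For GSK-J1 plus 4 Gy against GSK-J1, STC2 was called in all 6, DDIT3 in 4, PPP1R15A and VLDLR in 3. GDF15 was called there in 2, ATF3, SLC7A11 and XBP1 in 1 and EDEM1 in 0. In the averaged comparison, 16 of the 21 called members were called in each of the 12 fits that left out a library. The other 5 were SEL1L, called in 8, CRELD2 in 7, TRIB3 in 6, SDF2L1 in 5 and HSPA5 in 4.

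In SAS the same irradiation gave a different set of values. Without regard to replicate numbers, 3 of 40 members rose (GDF15, ATF3 and SDF2L1) and 3 fell (DDIT4, NUPR1 and PHGDH), beside 9.65% of all genes called higher and 10.5% lower. Neither share of the members was above that of all genes. Same-numbered SAS libraries deviated together in all treatments, and with the replicate number in the fit 7 members rose and 13 fell, beside 17.8% and 19.2% of all genes. In that fit only the share of members that fell was above that of all genes. The 13 that fell were ATF4, TRIB3, NUPR1, DDIT4, ASNS, PHGDH, SHMT2, ALDH1L2, the 4 amino acid transporters and HERPUD1. The 7 that rose were ATF3, PPP1R15A, GDF15 and 4 chaperones or folding factors, DNAJC3, SDF2L1, CRELD2 and HYOU1. Over the ATF4 targets the median log2 fold change was -0.16 in that fit (3 higher, 11 lower) and over the chaperones 0.17 (4 higher, none lower), against -0.01 over all genes. Leaving out the pair of SAS libraries with Cal33 transcripts, GDF15 and ATF3 rose and DDIT4 fell, beside 6.2% of all genes called higher and 6.46% lower, and no other member passed (adjusted p = 0.0763 for SDF2L1, 0.114 for NUPR1 and 0.117 for PHGDH). With the replicate number in that fit 7 members rose and 10 fell, beside 13.7% and 15% of all genes. The 6 members called without a replicate term became 3 without SAS GSK-J1 plus 4 Gy replicate 2. Of the 12 fits that left out a library, DDIT4, GDF15 and SDF2L1 were called in all 12. ATF3 and NUPR1 were called in 6 and PHGDH in 4. Markers of other cells summed to 36.3 to 61.9 CPM in irradiated SAS libraries, against 34.8 to 139 CPM in the others, and 2 of 11 tested fell, but none when that pair was left out. Of 13 squamous markers 4 rose and 4 fell, and they summed to 6420 to 7950 CPM, against 6240 to 7670 CPM in the others; the part of either marker list in the result was not tested.

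DDIT4 had the smallest adjusted p of the members in SAS. It had 119, 111 and 126 CPM with GSK-J1 plus 4 Gy and 139, 133 and 119 CPM after 4 Gy, against 394, 275 and 277 CPM with GSK-J1 and 404, 370 and 299 CPM in sham. No irradiated library came near the others, and it fell by 1.44 ± 0.10 on the log2 scale (adjusted p = 5.87e-06). GDF15 rose in SAS too, by 0.53 ± 0.09 (adjusted p = 0.00203). It had 64.5, 79.3 and 69.8 CPM with GSK-J1 plus 4 Gy and 68.6, 78.0 and 67.6 CPM after 4 Gy, against 57.4, 38.6 and 52.2 CPM with GSK-J1 and 48.9, 46.6 and 51.9 CPM in sham, without overlap. ATF3 had a median of 15.0 CPM (12.3 to 18.0) in irradiated SAS libraries and 9.18 CPM (7.96 to 14.2) in the others, which overlapped, and rose by 0.53 ± 0.16 (adjusted p = 0.0307). PPP1R15A had 95.9, 97.4 and 162 CPM with GSK-J1 plus 4 Gy and 110, 104 and 148 CPM after 4 Gy, against 66.3, 44.4 and 147 CPM with GSK-J1 and 55.8, 45.1 and 131 CPM in sham. Replicate 3 was highest in each treatment, and PPP1R15A was higher after irradiation within every same-numbered pair, so that it passed with the replicate number in the fit (0.68 ± 0.13, adjusted p = 0.000667) and not without it (adjusted p = 0.237).

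ATF4 mRNA in SAS had 394, 333 and 508 CPM with GSK-J1 plus 4 Gy and 412, 353 and 466 CPM after 4 Gy, against 550, 384 and 606 CPM with GSK-J1 and 509, 362 and 544 CPM in sham. It was lower after irradiation in each same-numbered pair and fell by 0.25 ± 0.05 on the log2 scale with the replicate number in the fit (adjusted p = 0.00148), but did not pass without it (adjusted p = 0.201). PHGDH had 246, 208 and 375 CPM with GSK-J1 plus 4 Gy and 236, 211 and 345 CPM after 4 Gy, against 428, 292 and 563 CPM with GSK-J1 and 404, 304 and 529 CPM in sham, and fell by 0.64 ± 0.20 (adjusted p = 0.0371). SLC7A11 had 36.9, 31.5 and 62.5 CPM with GSK-J1 plus 4 Gy and 27.9, 23.3 and 49.7 CPM after 4 Gy, against 56.4, 36.2 and 108 CPM with GSK-J1 and 47.8, 30.8 and 114 CPM in sham. It fell by 0.68 ± 0.09 with the replicate number in the fit (adjusted p = 5.5e-05) and did not pass without it (adjusted p = 0.127). ASNS had a median of 86.6 CPM (63.7 to 154) in irradiated SAS libraries, against 140 CPM (57.8 to 234) in the others. In replicate 2 the irradiated libraries were the higher ones for ASNS, and it fell by 0.45 ± 0.12 only with the replicate number in the fit (adjusted p = 0.00934 with it and 0.242 without it).

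The SAS values of DDIT3 overlapped fully, with 31.1 to 38.6 CPM (median 34.2) after irradiation and 25.2 to 52.0 CPM (median 34.7) without it. STC2 also overlapped, with 162 to 280 CPM (median 191) after irradiation and 163 to 291 CPM (median 242) without it. So did CHAC1, with 7.55 to 19.5 CPM (median 8.95) after irradiation and 4.84 to 19.0 CPM (median 10.2) without it. TRIB3 had 88.6 to 151 CPM (median 108) after irradiation and 91.5 to 216 CPM (median 123) without it, and fell by 0.25 ± 0.07 with the replicate number in the fit. Without that term the SE was large for some of these targets, such as 0.37 around an estimate of 0.06 for CHAC1. NUPR1 was low in SAS, with 4.55, 4.49 and 5.44 CPM with GSK-J1 plus 4 Gy and 4.41, 6.05 and 4.91 CPM after 4 Gy, against 12.01, 4.59 and 7.10 CPM with GSK-J1 and 13.1, 6.76 and 7.41 CPM in sham. It fell by 0.77 ± 0.22 (adjusted p = 0.0274). Its adjusted p was 0.114 when replicate 1 of both GSK-J1 groups, where Cal33 transcripts were found, was left out.

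Among the SAS chaperones, SDF2L1 rose by 0.40 ± 0.10 (adjusted p = 0.0147), with 19.4, 15.6 and 14.8 CPM with GSK-J1 plus 4 Gy and 17.2, 12.4 and 15.4 CPM after 4 Gy, against 11.2, 12.6 and 11.1 CPM with GSK-J1 and 11.1, 14.0 and 11.6 CPM in sham. In replicate 2 of the arm without GSK-J1 the sham value was the higher. CRELD2 had 21.7, 18.4 and 17.5 CPM with GSK-J1 plus 4 Gy and 23.7, 18.3 and 18.9 CPM after 4 Gy, against 16.6, 17.7 and 15.5 CPM with GSK-J1 and 18.6, 17.0 and 12.5 CPM in sham. HYOU1 had 136 to 180 CPM (median 146) in irradiated libraries and 120 to 153 CPM (median 134) in the others. Both were higher after irradiation in every same-numbered pair and rose by 0.27 ± 0.07 and 0.17 ± 0.04 with the replicate number in the fit. HSPA5 had 670 to 841 CPM (median 735) after irradiation and 541 to 819 CPM (median 741) without it. XBP1 had 52.8 to 68.7 CPM (median 56.2) after irradiation and 48.0 to 80.0 CPM (median 64.4) without it. EDEM1 had 52.2 to 70.3 CPM (median 57.6) after irradiation and 55.3 to 71.2 CPM (median 59.9) without it. None of these 3 passed either fit in SAS.

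For 4 Gy against sham in SAS, DDIT4 fell and GDF15 rose and no other member passed, beside 3.63% of all genes called higher and 3.45% lower. With the replicate number in the fit 5 members rose and 8 fell, beside 11.3% and 13.2% of all genes. The same 2 genes passed for GSK-J1 plus 4 Gy against GSK-J1, beside 2.43% higher and 1.99% lower, and with the replicate number 4 rose and 8 fell, beside 10.4% and 11% of all genes. Either count of 2 fell to 1 without any library of the irradiated group or without replicate 2 of the group that was not irradiated. For GSK-J1 plus 4 Gy against GSK-J1 it was 1 without the pair of libraries that hold Cal33 transcripts, beside 0.414% of all genes, and 6 with the replicate number in that fit, beside 10% of all genes.

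ATF4 targets and chaperones were then compared within each library, as the mean log2 CPM of each list relative to the 3 sham libraries of the line. In Cal33 the ATF4 targets averaged 0.63 ± 0.17 with GSK-J1 plus 4 Gy, 0.53 ± 0.23 after 4 Gy, 0.06 ± 0.22 with GSK-J1 and 0 ± 0.26 in sham (SD, n = 3 each). The chaperones averaged 0.33 ± 0.05 with GSK-J1 plus 4 Gy, 0.29 ± 0.10 after 4 Gy, 0.02 ± 0.08 with GSK-J1 and 0 ± 0.06 in sham. Both lists were thus higher in every irradiated Cal33 library than in any other. Targets minus chaperones was 0.14 to 0.43 in irradiated Cal33 libraries and -0.28 to 0.18 in the others, which overlapped, and this difference was not tested. In SAS the ATF4 targets averaged -0.11 ± 0.32 with GSK-J1 plus 4 Gy, -0.16 ± 0.20 after 4 Gy, 0.06 ± 0.48 with GSK-J1 and 0 ± 0.44 in sham. The SAS chaperones averaged 0.18 ± 0.12 with GSK-J1 plus 4 Gy, 0.15 ± 0.11 after 4 Gy, 0 ± 0.11 with GSK-J1 and 0 ± 0.17 in sham. All SAS groups overlapped on both lists. SAS replicate 3 had the highest ATF4 target mean in every treatment, at 0.25 with GSK-J1 plus 4 Gy, 0.06 after 4 Gy, 0.48 with GSK-J1 and 0.42 in sham. Replicate 2 had the lowest, at -0.35 with GSK-J1 plus 4 Gy, -0.33 after 4 Gy, -0.46 with GSK-J1 and -0.46 in sham.

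**Figure D3:**
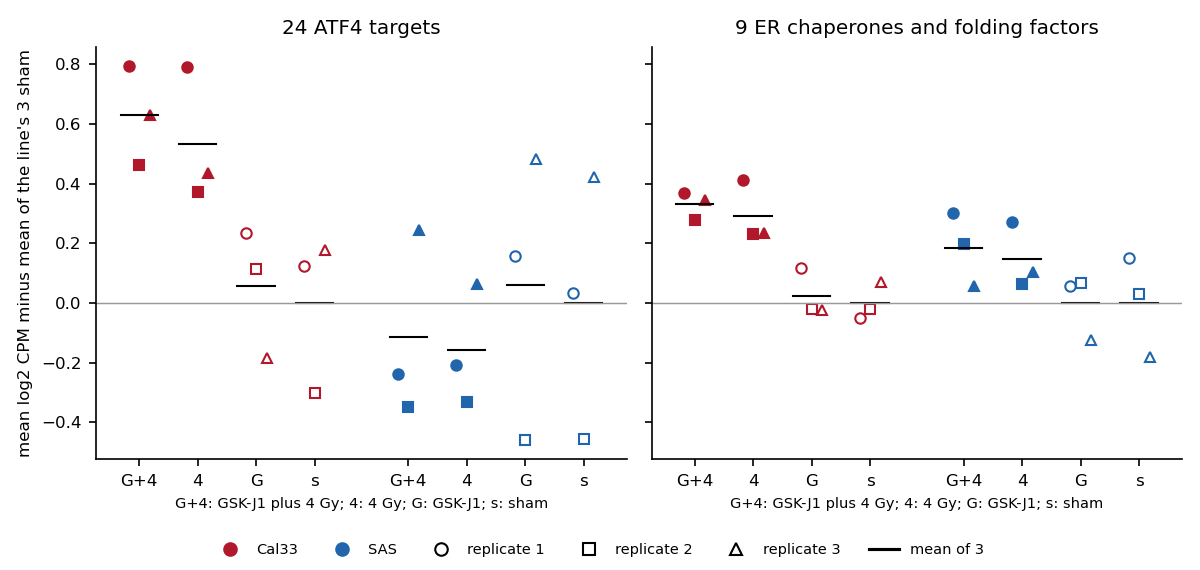
Mean log2 CPM of 24 ATF4 targets and of 9 chaperones in each library, relative to the mean of the 3 sham libraries of the line. Colours give the line, marker shapes the replicate number, filled markers irradiated libraries and short lines the means of 3; G+4 is GSK-J1 plus 4 Gy, 4 is 4 Gy, G is GSK-J1 and s is sham. The Cal33 targets reach 0.37 to 0.79 in irradiated libraries, and the SAS libraries spread from -0.46 to 0.48 by replicate number.

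Within same-numbered SAS pairs, 4 Gy over sham gave median log2 ratios of the 24 ATF4 targets of -0.20 in replicate 1, 0.12 in replicate 2 and -0.41 in replicate 3, and GSK-J1 plus 4 Gy over GSK-J1 gave -0.31, 0.11 and -0.27 in replicates 1, 2 and 3. The target medians were thus negative in replicates 1 and 3 and positive in replicate 2, whose targets were lowest in sham. The chaperone medians were positive in all 6 pairs, at 0.04, 0.01 and 0.37 for 4 Gy over sham and at 0.18, 0.06 and 0.16 for GSK-J1 plus 4 Gy over GSK-J1. Of the sum of squares of log2 CPM over the 12 SAS libraries, the replicate number held a median of 67.4% for the 40 members and irradiation 14%, against 27.1% and 18.6% over all genes tested. Members with a larger share for the replicate number numbered 31 of 40. In Cal33 the medians were 13.4% for the replicate number and 52% for irradiation, against 18.5% and 21.2% over all genes. The replicate number separates 3 sets and irradiation 2, so the shares are descriptions on unequal terms. PSPH, the last enzyme of serine synthesis, had 93.9% in SAS by replicate number, and its values were 42.0, 40.3 and 56.0 CPM with GSK-J1 plus 4 Gy, 43.4, 41.6 and 53.9 CPM after 4 Gy, 45.0, 36.5 and 60.8 CPM with GSK-J1 and 44.1, 39.1 and 57.6 CPM in sham. DDIT4 and GDF15 were the opposite, with 93.7% and 76.9% by irradiation in SAS.

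**Figure D4:**
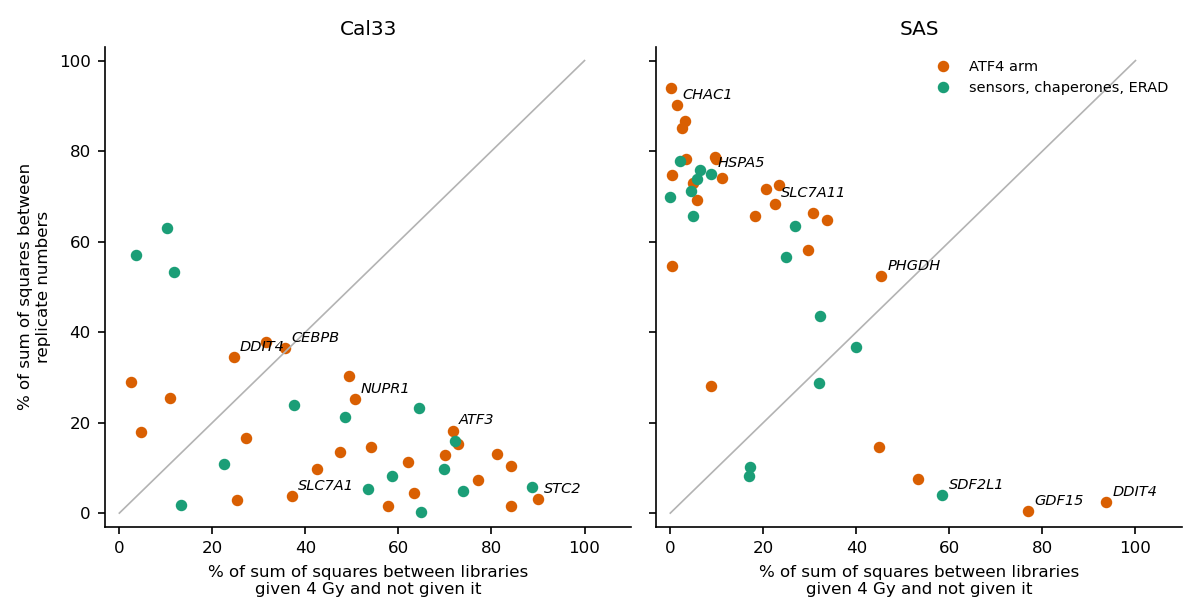
Share of each member's sum of squares between libraries given 4 Gy and not given it (horizontal, %) and between replicate numbers (vertical, %), in Cal33 (left) and SAS (right), over 12 libraries each, with the ATF4 arm in orange and the sensors, chaperones and ER-associated degradation (ERAD) in green. Points above the diagonal have the larger share by replicate number, which holds for 9 of 40 members in Cal33 and 31 of 40 in SAS.

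The difference between the lines in the effect of irradiation was tested directly in a fit of all 24 libraries. It passed for 9 of 40 members, all higher in Cal33, beside 2.81% of all genes higher and 2.1% lower. They were STC2, DDIT3, NUPR1, VLDLR, GDF15, ATF3, SLC7A11, XBP1 and EDEM1, of which 7 are ATF4 targets. The median difference was 0.70 over the ATF4 targets and 0.14 over the chaperones, against 0.01 over all genes, and no chaperone passed. With the replicate number in the fit 16 members passed, again all higher in Cal33, beside 6.06% of all genes higher and 5.06% lower. That fit gave Cal33 a replicate term too, although replicate numbers do not pair Cal33 sham with the other Cal33 libraries. ATF4, TRIB3, PPP1R15A, DDIT4, SESN2, SHMT2 and SLC3A2 were called in addition to the 9, while no chaperone was. The difference was 1.38 ± 0.26 for DDIT3 (adjusted p = 0.00303) and 1.28 ± 0.24 for STC2 (adjusted p = 0.00272), and 0.01 ± 0.14 for CRELD2 and 0.02 ± 0.17 for SDF2L1. DDIT4 did not pass without that term (0.87 ± 0.30, adjusted p = 0.103). Leaving out the pair of SAS libraries with Cal33 transcripts, DDIT3, NUPR1, VLDLR, STC2 and EDEM1 passed, beside 1.46% of all genes higher and 1.31% lower, and ATF3, GDF15, SLC7A11 and XBP1 did not. With the replicate number in that fit 14 members passed, all higher in Cal33, beside 3.51% and 3.42% of all genes, with the same limit for Cal33 sham. Of the 24 fits that left out one library, DDIT3, NUPR1, VLDLR, STC2 and XBP1 passed in all 24, GDF15 and EDEM1 in 21, ATF3 in 9 and SLC7A11 in 6.

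GSK-J1 changed no member at the threshold. Of 40 members none was called by edgeR in GSK-J1 against sham, in GSK-J1 plus 4 Gy against 4 Gy, in the average of both, in the interaction with 4 Gy, or in the difference between the lines, and DESeq2 called none either. Averaged over both arms, 0% of all genes were called in Cal33 and 0% in SAS, with 304 and 583 genes at an unadjusted p under 0.05. Of the members, only PHGDH in Cal33 was among them. Its Cal33 values, given above, were higher in 3 of 3 same-numbered libraries with GSK-J1 plus 4 Gy than after 4 Gy, and the averaged effect was 0.20 ± 0.09 on the log2 scale (unadjusted p = 0.0337, adjusted p = 1). PSAT1, the next enzyme of serine synthesis, had 169, 236 and 208 CPM with GSK-J1 plus 4 Gy and 169, 186 and 172 CPM after 4 Gy. It had 210, 206 and 207 CPM with GSK-J1 and 184, 196 and 206 CPM in sham (0.16 ± 0.08, adjusted p = 1). PSPH had 72.6, 65.0 and 63.0 CPM with GSK-J1 and 61.4, 63.2 and 62.5 CPM in Cal33 sham (0.10 ± 0.11). TRIB3 had 176, 164 and 180 CPM with GSK-J1 plus 4 Gy and 170, 143 and 132 CPM after 4 Gy in Cal33 (0.23 ± 0.22). All averaged log2 effects of GSK-J1 lay between -0.05 and 0.20 in Cal33 and between -0.18 and 0.27 in SAS. Over the Cal33 members, intervals of 2 SE either side reached as low as -0.69 and as high as 0.89. Changes as large as those ends could therefore have been missed for the most variable Cal33 members. The ends are not a limit of detection, since a call also needed adjustment over all genes.

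In SAS the members with the smallest p for GSK-J1 were different ones. DNAJB9 had 8.74, 9.73 and 7.28 CPM with GSK-J1 plus 4 Gy and 7.40, 7.57 and 6.87 CPM after 4 Gy, but 7.12, 5.83 and 6.65 CPM with GSK-J1 and 8.24, 5.91 and 8.55 CPM in sham. The compound's estimates were 0.22 ± 0.16 with irradiation and -0.22 ± 0.16 without it (interaction 0.44 ± 0.22, adjusted p = 1). SEL1L had 73.4, 72.7 and 78.0 CPM with GSK-J1 and 77.9, 76.4 and 87.4 CPM in sham, and was lower in each same-numbered pair (-0.12 ± 0.10, adjusted p = 1). DNAJC3, an inhibitor of the eIF2 kinases, had 39.5, 47.5 and 45.4 CPM with GSK-J1 plus 4 Gy and 35.1, 39.4 and 44.2 CPM after 4 Gy (0.14 ± 0.12, adjusted p = 1). Averaged over both arms, DDIT4 had -0.18 ± 0.10, MTHFD2 0.10 ± 0.12 and EDEM1 0.08 ± 0.08, each with an adjusted p of 1.

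Fits of only the 6 libraries of a comparison with the replicate number as a term called some members for GSK-J1, where the 12-library fits with that term called none. For SAS GSK-J1 plus 4 Gy against 4 Gy, 6 members rose and 2 fell in the 6-library fit, beside 7.98% of all genes called. The 6 were ASNS, PSAT1, ALDH1L2, SLC7A11, DNAJC3 and EDEM1, and the 2 were ATF3 and DDIT4. ASNS had 92.8, 73.8 and 154 CPM with GSK-J1 plus 4 Gy and 80.4, 63.7 and 111 CPM after 4 Gy in SAS, higher in each pair (adjusted p = 7.85e-05 in the 6-library fit and 0.763 with 12 libraries). ALDH1L2, a mitochondrial folate dehydrogenase, had 41.4, 39.6 and 70.2 CPM with GSK-J1 plus 4 Gy and 35.3, 32.2 and 54.8 CPM after 4 Gy (adjusted p = 4.19e-05 and 0.732). Without GSK-J1 plus 4 Gy replicate 1, which holds Cal33 transcripts, ASNS, PSAT1, ALDH1L2 and SLC7A11 passed in the remaining 5 libraries, beside 3.41% of all genes. For SAS GSK-J1 against sham, TRIB3 and ASNS passed, beside 2.59% of all genes. Without GSK-J1 replicate 1, which also holds Cal33 transcripts, neither passed and DDIT4 did, lower with GSK-J1 (adjusted p = 0.0211), beside 1.67% of all genes. For Cal33 GSK-J1 plus 4 Gy against 4 Gy, GDF15 and PHGDH passed, beside 0.515% of all genes.

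The lines also differed before treatment. Between Cal33 sham and SAS sham, 7 members were higher and 12 lower in Cal33, beside 27.2% of all genes higher and 27.2% lower. Members were thus called about as often as genes at large. Of the 19 calls, 14 were kept in every fit that left out a library. ALDH1L2 had 1.97, 1.08 and 1.45 CPM in Cal33 sham and 65.0, 33.4 and 93.6 CPM in SAS sham, a log2 difference of -5.43 ± 0.45 (adjusted p = 1.42e-09). STC2 had 43.6, 30.9 and 50.2 CPM in Cal33 sham and 243, 163 and 281 CPM in SAS sham (-2.48 ± 0.25), and PHGDH was also lower in Cal33 (-1.56 ± 0.23). NUPR1 had 171, 72.8 and 85.5 CPM in Cal33 sham and 13.1, 6.76 and 7.41 CPM in SAS sham (3.57 ± 0.44, adjusted p = 4.52e-07). CRELD2 had 42.8, 41.2 and 35.2 CPM in Cal33 sham and 18.6, 17.0 and 12.5 CPM in SAS sham (1.29 ± 0.14), and DDIT4 was higher in Cal33 by 1.66 ± 0.31. HYOU1 had 259, 242 and 276 CPM in Cal33 sham and 153, 120 and 122 CPM in SAS sham (0.96 ± 0.14), while EDEM1 had 38.2, 36.8 and 36.0 CPM in Cal33 sham and 68.9, 56.7 and 58.0 CPM in SAS sham (-0.74 ± 0.10). None of these sham values overlapped between the lines. HSPA5 overlapped, with 620, 675 and 776 CPM in Cal33 sham and 819, 717 and 541 CPM in SAS sham (-0.02 ± 0.16, adjusted p = 0.921).

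Per kilobase of exon, SLC7A5 stood highest in both lines, at 916 CPM per kb in Cal33 sham and 624 CPM per kb in SAS sham. In Cal33 sham DDIT4 followed with 553, CALR with 339 and SLC3A2 with 199 CPM per kb. In SAS sham CALR followed with 293, HSP90B1 with 238 and ATF4 with 188 CPM per kb. VLDLR was lowest in both, with 0.0609 CPM per kb in Cal33 sham and 0.021 CPM per kb in SAS sham, next to ALDH1L2 in Cal33 with 0.176 CPM per kb. Over the 6 irradiated Cal33 libraries DDIT3 reached 45.8 CPM per kb, against 18.4 CPM per kb in the other 6, and PPP1R15A 50.6 CPM per kb, against 15.5 CPM per kb.

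Genes of the same pathways outside the 40 were read from separate lists. In Cal33, 9 of 40 other integrated stress response genes rose after irradiation and 1 fell, where 11.3% of all genes were called higher and 10.2% lower. VEGFA, the angiogenic growth factor, rose by 1.20 ± 0.14, the tryptophanyl-tRNA synthetase WARS by 1.19 ± 0.16, ATF5 by 0.83 ± 0.14 and EIF2AK2 (PKR), an eIF2 kinase that interferon also raises, by 0.78 ± 0.08, while the neutral amino acid transporter SLC1A4 fell by 0.61 ± 0.10. In SAS, 1 of 39 rose (EIF2S1, the eIF2 alpha subunit) and 4 fell, among them CEBPD by 0.76 ± 0.09, where 9.65% of all genes were called higher and 10.5% lower. With the replicate number in the SAS fit 5 of the 39 rose and 9 fell, where 17.8% and 19.2% of all genes were called. Of 39 other unfolded protein response genes, 12 rose and 2 fell in Cal33, and 6 rose and 2 fell in SAS (16 and 5 with the replicate number in the fit). ERO1L, the ER oxidase, rose in both, by 0.66 ± 0.12 in Cal33 and 0.40 ± 0.06 in SAS, and ATF6B and the ATF6 protease MBTPS1 fell in both. HSPA13 rose by 0.68 ± 0.09 in Cal33. Of 12 cytosolic heat shock genes, 3 rose and HSPB1 fell in Cal33, and 6 rose in SAS, HSPH1 by 0.56 on the log2 scale, and with the replicate number 8 rose and 1 fell in SAS. Without the pair of SAS libraries with Cal33 transcripts and with no replicate term, 1 rose and 1 fell of the other integrated stress response genes in SAS, 3 rose and 2 fell of the other unfolded protein response genes, and 5 heat shock genes rose, where 6.2% of all genes were called higher and 6.46% lower. GSK-J1 changed none of these lists' genes at the threshold, averaged over both arms.

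The values of some members carry a limit from counting. DDIT3, GDF15, ATF6, HSP90B1, DNAJC3 and HERPUD1 overlap another gene on the same strand in the annotation, and ATF4, ASNS, PSAT1, PSPH, MTHFD2, SLC7A5 and XBP1 have named pseudogenes, so their counts are uncertain where reads could be shared. In the hs37d5 genome of the files GDF15 (ENSG00000130513.6) lies at chromosome 19, 18485541 to 18499986, DDIT3 (ENSG00000175197.6) at chromosome 12, 57910371 to 57914300, DDIT4 (ENSG00000168209.4) at chromosome 10, 74033678 to 74035794, and STC2 (ENSG00000113739.6) at chromosome 5, 172741716 to 172756506. Each value sums all exons of the gene.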

How the data were processed

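Total RNA of 24 libraries was sequenced (TruSeq Stranded Total RNA, paired ends). The authors aligned reads to hs37d5 with STAR 2.5.3a and SAMtools 1.6 and counted them per gene with featureCounts (Subread 1.5.1), and they deposited raw counts by strand. Counts on the gene strand (94.4% to 95.2% of stranded counts) were used; the deposited FPKM and TPM columns were not. The deposited exonic length of each gene gave levels per kilobase.

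edgeR 4.0.16 (R 4.3.3) was fitted to the 12 libraries of a line (24351 genes in Cal33, 23416 in SAS) or to all 24 (24597 genes), with TMM scaling, a filter that kept genes averaging 1 or more counts per library, quasi-likelihood tests and an adjusted p threshold of 0.05 over all genes. CPM printed use TMM factors over all 24 libraries, and list means use log2 CPM with a prior count of 2. Standard errors are the log2 fold change divided by the root of F. The procedure was tested on simulated data. That test covered only irradiation averaged in Cal33, with the same spread for every gene and no replicate term. Alternatives were DESeq2 1.42.0 and its size factors, other count filters, counts without regard to strand, 6-library fits, a replicate term, and leaving out each library in turn. Fits with the replicate term and without SAS libraries in which Cal33 transcripts were found were added after seeing the data. Library totals had a median of 76418470.5 counts.

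The members and lists were chosen with earlier results of these data known. Values by library were given for ATF4, DDIT3, TRIB3, ASNS, CHAC1, HSPA5, XBP1 and HERPUD1, for up to 6 called members with the smallest adjusted p in each pairwise or averaged comparison, and, where fewer than 3 were called, for the 3 with the smallest p; of the other lists, up to 4 called genes were named. Same-numbered libraries were checked by correlating deviations from group means. In SAS every correlation was at least 0.113, above the minimum of 0.1 set for this check. The numbers were therefore taken to pair the SAS libraries, and the replicate block moved the members called after irradiation to 20. What same-numbered libraries shared was not tested. In Cal33 correlations with sham went down to -0.348, so its numbers do not pair libraries with sham; among its other treatments they were at least 0.106.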

Additional observations from a re-analysis of the deposited data

Results flagged for a closer look

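For 9 members the effect of irradiation differed between Cal33 and SAS by a direct test of the difference in edgeR's fit of 24 libraries. Each difference was positive and so higher in Cal33, beside 2.81% of all genes called higher and 2.1% lower. In log2 units, Cal33 minus SAS, with SE, NUPR1 differed by 1.89 ± 0.41 (adjusted p = 0.00856), GDF15 by 1.73 ± 0.44 (adjusted p = 0.0264), VLDLR by 1.72 ± 0.38 (adjusted p = 0.0102) and ATF3 by 1.42 ± 0.39 (adjusted p = 0.0385). DDIT3 differed by 1.38 ± 0.26 (adjusted p = 0.00303), SLC7A11 by 1.35 ± 0.39 (adjusted p = 0.0467), STC2 by 1.28 ± 0.24 (adjusted p = 0.00272), XBP1 by 0.79 ± 0.19 (adjusted p = 0.0175) and EDEM1 by 0.42 ± 0.10 (adjusted p = 0.0202). NUPR1 and SLC7A11 had a positive estimate in Cal33 and a negative one in SAS, as did DDIT3, STC2, XBP1 and EDEM1. The SAS estimates of DDIT3, STC2, XBP1 and EDEM1, -0.08, -0.13, -0.12 and -0.08, did not pass the test. In SAS, SLC7A11 did not pass without the replicate number in the fit. Nor did NUPR1 when the pair of SAS libraries with Cal33 transcripts was left out of that fit. GDF15, ATF3 and VLDLR were positive in both lines, but VLDLR did not pass in SAS. Of the 24 fits that left out a library, DDIT3, NUPR1, VLDLR, STC2 and XBP1 passed in all 24, GDF15 and EDEM1 in 21, ATF3 in 9 and SLC7A11 in 6. Without the pair of SAS libraries that hold Cal33 transcripts, XBP1 (adjusted p = 0.0577), GDF15 (0.0789), SLC7A11 (0.1) and ATF3 (0.126) did not pass. With the replicate number in the fit, 16 members passed, these 9 among them, beside 6.06% of all genes called higher and 5.06% lower. Replicate numbers do not, however, pair Cal33 sham with the other Cal33 libraries.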

How the results depend on the processing

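No called member changed direction under any alternative run. Shares of all genes called stand in brackets, except for fits that left out each library in turn. Of 77 calls of a member in a comparison, 77 were kept by DESeq2, 77 by the replicate block, 77 with a mean of at least 10 counts, 75 with DESeq2 size factors, 72 with no count filter and 71 with counts without regard to strand. The block was also fitted to comparisons that hold Cal33 sham, which replicate numbers do not pair with the other Cal33 libraries. Leaving out each library in turn kept 617 of 786. The 6-library fits kept 16 of 22 calls, and 20 with the block. Without the 2 SAS libraries that hold Cal33 transcripts 30 of 38 were kept, and 38 with the block. With the replicate block, the members called were 13 (24.5%) for SAS 4 Gy against sham, 12 (21.5%) for SAS GSK-J1 plus 4 Gy against GSK-J1, 20 (37%) for SAS irradiation averaged and 16 (11.1%) for the difference between the lines. With 6 libraries they were 5 (3.19%) for Cal33 4 Gy against sham and 1 (2.28%) for SAS GSK-J1 plus 4 Gy against GSK-J1. With 6 libraries and the replicate block they were 19 (18.4%) for Cal33 and 17 (20.2%) for SAS GSK-J1 plus 4 Gy against GSK-J1, 13 (16.6%) for SAS 4 Gy against sham, 2 (0.515%) for Cal33 and 8 (7.98%) for SAS GSK-J1 plus 4 Gy against 4 Gy, and 2 (2.59%) for SAS GSK-J1 against sham. Without the SAS library that holds Cal33 transcripts, the last 2 counts for SAS were 4 (3.41%) and 1 (1.67%). Without both such libraries the counts were 1 (0.414%) for SAS GSK-J1 plus 4 Gy against GSK-J1, 3 (12.7%) for SAS irradiation averaged and 5 (2.77%) for the difference between the lines, and with the replicate block added 6 (10%), 17 (28.6%) and 14 (6.94%), and 13 (20.8%) for SAS 4 Gy against sham. Leaving out each library gave 3 to 8 for Cal33 4 Gy against sham, 1 to 7 for Cal33 GSK-J1 plus 4 Gy against GSK-J1, 16 to 21 for Cal33 irradiation averaged, 1 to 2 for each SAS comparison of irradiated with other libraries, 3 to 7 for SAS irradiation averaged, 16 to 20 for Cal33 sham against SAS sham and 6 to 11 for the difference between the lines. It gave 0 for GSK-J1 throughout. Without shares of all genes, these leave-out counts do not show whether members lost calls more often than all genes did. The cause of these shifts was not tested. VLDLR, at 0.127 to 2.66 CPM, rests on the fewest counts.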
